A study of Mus musculus with 8 samples.

Results

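The 38 genes described here are a list of targets of the hypoxia-inducible factors (HIF) that lie outside the glycolytic enzymes, plus *Hif1a* itself. They were taken as a list of symbols, chosen with earlier results of these data known but with no threshold on the values. All 38 were found among the 49315 genes counted and among the 17163 genes that passed the filter on low counts. Poly-A RNA of whole mouse hearts at embryonic day (E) 9.5 was sequenced from wild-type (WT) embryos and from embryos homozygous for Tbx20EH1Mut, with 4 libraries per genotype and 3 pooled hearts per library. The mutant allele is a CRISPR/Cas9 germline change of adjacent amino acids in the engrailed homology 1 (EH1) domain of the transcription factor Tbx20, by which it binds TLE corepressors, so every cell of the mutant embryo carries it. Both genotypes were on a C57BL/6J background, and hearts of both sexes could enter a pool. The paper reports growth retardation of mutant embryos against controls at this stage, and hearts that had not looped. Gene-level counts do not show the substituted codons.

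HIF is a dimer of an oxygen-labile α subunit (HIF1α or HIF2α) and ARNT. With oxygen present, prolyl hydroxylases of the EGLN family mark the α subunit for the VHL ubiquitin ligase, and with little oxygen the dimer accumulates and binds the hypoxia response element, whose core is ACGTG or GCGTG. Its targets raise glucose uptake, turn the cell away from mitochondrial respiration, call in blood vessels and rebuild collagen, and in the embryonic heart, which forms before its coronary vessels, HIF signalling is part of normal development.

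Expression of the list was higher in Tbx20EH1Mut hearts for most of its members. Of the 38 genes, 32 were called higher (adjusted p up to 0.05 in edgeR's quasi-likelihood test, with a log2 fold change of 0.5 or more), against 12.5% of all genes tested. A single member, *Pfkfb4*, was called lower, against 12.1% of all genes (24.6% were called in either direction), and 5 were not called (*Jmjd6*, *Car12*, *Plod1*, *Ppfia4* and *Hif1a*). With a fold threshold of 1 on the log2 scale, 27 members were called higher and 0 lower, against 6.67% and 4.16% of all genes. With no fold threshold, 33 were called higher and 2 lower, against 14.0% and 15.3%. The median log2 fold change was 1.36 over the 38 members and 0.00 over all genes tested, and the members ran from -0.75 (*Pfkfb4*) to 5.10 (*Ndufa4l2*). All 4 mutant libraries lay above all 4 WT libraries for 32 members, against 14.7% of all genes, and below them for *Hif1a* and *Pfkfb4*, against 15.7%. The genotypes overlapped for *Pfkfb3*, *Car12*, *Plod1* and *Ppfia4*. The split of all called genes between higher and lower was 2148 to 2070 with TMM scaling and 2516 to 1566 with upper-quartile scaling, under which 33 members were called higher. The member count was also 32 without WT replicate 1 and without mutant replicate 3, each the farthest from its group on the first principal component. Without mutant replicate 3, *Slc2a1* lost its call and *Jmjd6* gained one. The count was 33 without WT replicate 2.

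**Figure D1:**
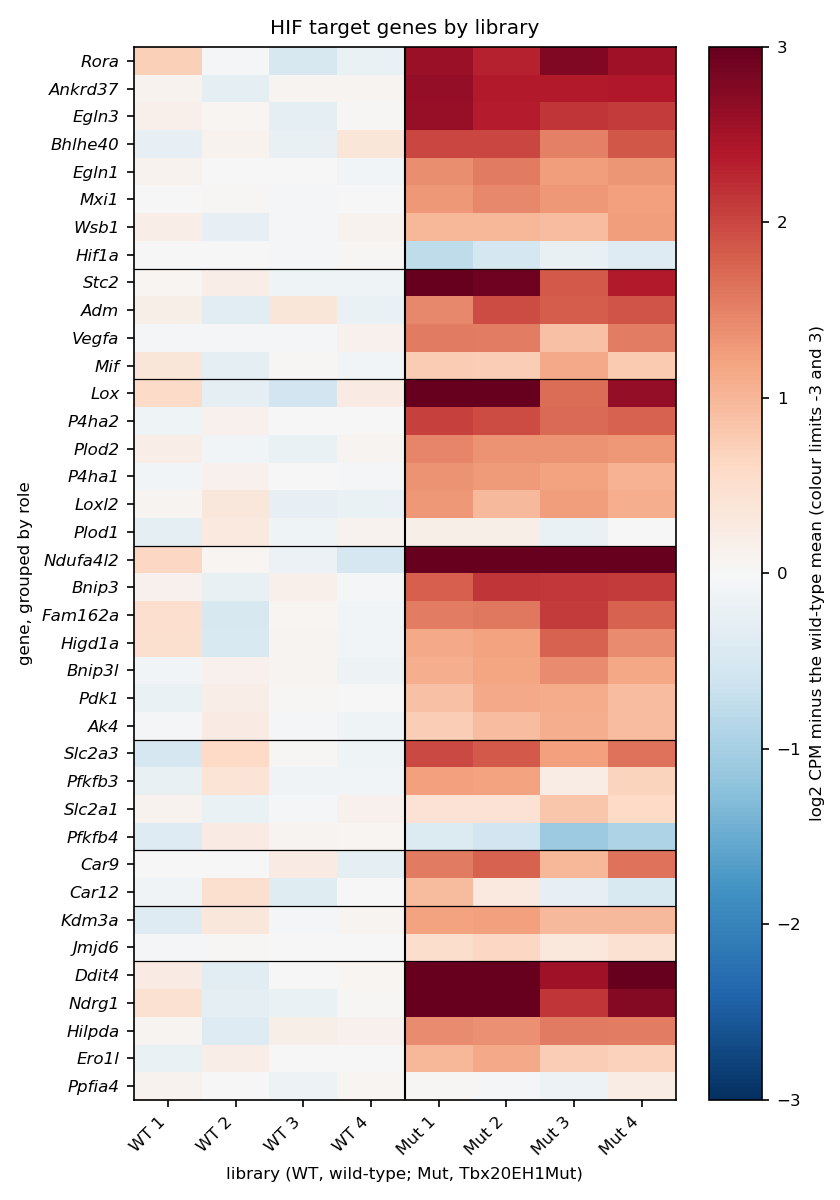
Each row is 1 of the 38 genes, grouped by role, and each column 1 library (WT, wild-type; Mut, Tbx20EH1Mut). Colour is log2 CPM minus the wild-type mean of that gene, with limits at -3 and 3. The 4 mutant columns are red for most rows, while *Hif1a* and *Pfkfb4* lie on the blue side there and *Plod1* and *Ppfia4* stay near white. *Car12* lies on the red side in mutant replicate 1 and on the blue side in mutant replicate 4.

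**Figure D2:**
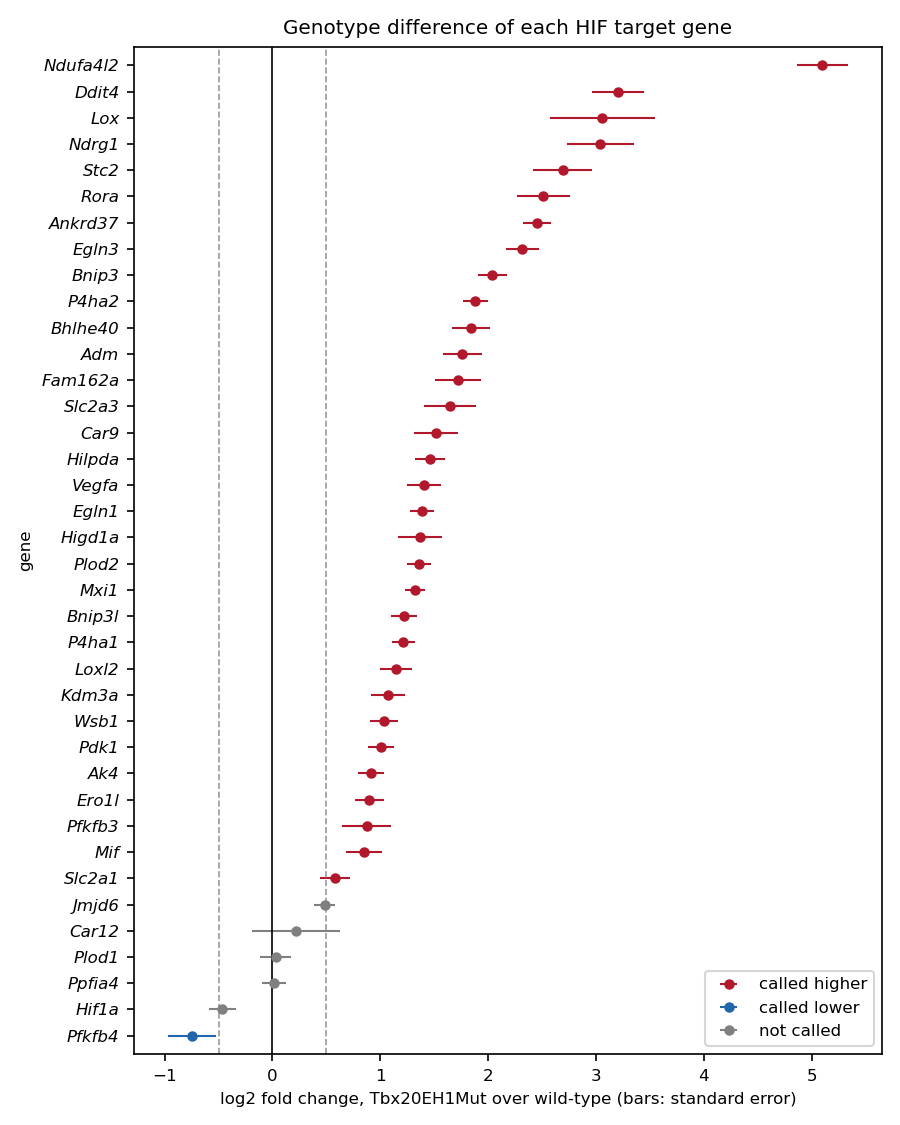
Points are log2 fold changes of Tbx20EH1Mut over wild-type from edgeR's quasi-likelihood fit for the 38 genes, bars are standard errors and dashed lines mark -0.5 and 0.5. The 32 genes called higher run from *Slc2a1* at 0.58 to *Ndufa4l2* at 5.10, and *Pfkfb4* at -0.75 is the gene called lower.

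Libraries held between 33359322 and 49523086 counts in WT and between 36250675 and 38357025 in mutant hearts (exact two-sided permutation test, p = 0.143). Levels are given as CPM, counts scaled by the TMM-adjusted library size, in the order of replicates 1 to 4, and levels of different genes are set side by side as RPKM, which is CPM per kilobase of exon. The genotypes lay apart on the first principal component (50.5% of the variance), on which WT replicate 1 was nearest to the mutants. Markers of other cells moved with genotype too. The summed level of 10 foregut epithelium markers was 272 to 369 CPM in WT and 948 to 1176 CPM in mutant libraries, with 6 of 10 called higher and none at 0 throughout. The keratins *Krt8*, *Krt18* and *Krt19* made up 270.5 to 332 CPM of the sum in WT and 918 to 1072 CPM in mutant libraries. The other 7 markers summed to 1.12 to 54.9 CPM in WT, where replicate 2 was the highest, and to 30.6 to 191 CPM in mutant libraries, so the genotypes overlapped. The summed level of 8 erythroid markers was 1090 to 2782 CPM in WT and 187 to 598 CPM in mutant libraries, with 7 of 8 called lower and none at 0 throughout. Of 8 cardiomyocyte markers, which define the labelled tissue and none of which stayed below 1 CPM throughout, 1 was called lower, and their sum was 19463 to 23717 CPM in WT and 20349 to 30662 CPM in mutant libraries. In such pools a different share of a cell type and a different amount of message per cell cannot be told apart. The part of these cells in the member values was not tested beyond a fit with a foregut covariate, the mean log2 CPM of the 10 foregut markers. In that fit 29 members were called higher, and *Lox*, *Ero1l* and *Pfkfb3* were not. Values that moved by over 1.5 times and kept their call were those of *Slc2a3* (0.94), *Kdm3a* (0.64), *Higd1a* (2.12), *Mif* (1.35) and *Pfkfb4* (-1.18).

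The promoters of the list were searched for the core letters ACGTG and GCGTG on both strands (CACGT and CACGC on the other strand), in the 250 bases before and 50 bases after each start that RefSeq lists for GRCm38.p6. Of the 30 members with a promoter in that table, 29 held at least 1 match in a listed promoter, against 65.9% of the 11767 genes tested that had one and 46.7% of all 27025 genes with one. The exception was *Car12*, 1 of the 5 members not called. All 24 members called higher that had a promoter held a match, as did *Pfkfb4*, *Hif1a*, *Jmjd6*, *Plod1* and *Ppfia4*, so the letters did not separate called from uncalled members. The palindrome CACGTG, which contains ACGTG and is also the E-box of other factors, was found for 6 of the 30 and for 11.4% of the genes tested. A match is a description of the letters and shows no binding. The 250 bases before the start are shown for the 3 members with the largest rises that have an entry in that table, on the gene's own strand from 5′ to 3′ with matches in capitals, at chr10:59951771-59952020 (minus strand), chr11:31370062-31370311 (minus strand) and chr9:68653536-68653785 (plus strand).
Ddit4: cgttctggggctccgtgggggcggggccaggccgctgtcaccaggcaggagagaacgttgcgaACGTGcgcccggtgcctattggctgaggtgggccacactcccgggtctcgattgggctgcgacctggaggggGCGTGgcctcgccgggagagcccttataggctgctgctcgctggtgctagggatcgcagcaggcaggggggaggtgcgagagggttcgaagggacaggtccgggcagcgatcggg
Stc2: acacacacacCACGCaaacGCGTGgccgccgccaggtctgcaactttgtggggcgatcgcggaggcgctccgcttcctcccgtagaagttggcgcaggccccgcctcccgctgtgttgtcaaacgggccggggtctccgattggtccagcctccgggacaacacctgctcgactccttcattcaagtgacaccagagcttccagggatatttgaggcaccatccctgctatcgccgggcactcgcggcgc
Rora: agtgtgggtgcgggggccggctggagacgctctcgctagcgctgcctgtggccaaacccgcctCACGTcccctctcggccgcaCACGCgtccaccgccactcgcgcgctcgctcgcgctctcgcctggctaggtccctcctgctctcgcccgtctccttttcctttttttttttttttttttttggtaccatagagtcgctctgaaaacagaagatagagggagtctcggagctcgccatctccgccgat

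The next members by size that have an entry are shown with the match nearest before their start and its surroundings, at chr8:45999851-45999866, chr12:54204089-54204113 and chr7:138909527-138909551, all on the minus strand. The promoter of *Ankrd37* holds 4 matches in all, that of *Bnip3* 5 and that of *Egln3* 1. The match shown begins 6 bases before the start of *Ankrd37*, 229 before that of *Egln3* and 35 before that of *Bnip3*.
Ankrd37: gtgtttgggtACGTGa
Egln3: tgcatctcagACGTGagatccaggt
Bnip3: ctccgccgccGCGTGcgtcccgccc

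*Ndufa4l2*, *Lox* and *Ndrg1* also rose strongly but have no entry in the table, nor do *Bhlhe40*, *Plod2*, *Loxl2*, *Bnip3l* and *Slc2a3*.

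The oxygen-sensing members hold the factor's own gene and those that feed back on it. *Hif1a* (ENSMUSG00000021109, chromosome 12 from 73901375 to 73947530 of GRCm38, plus strand), which encodes the α subunit, was measured at 309, 311, 302 and 314 CPM in WT and at 182, 214, 265 and 235 CPM in mutant libraries. Every mutant library lay below every WT library, with the lowest in mutant replicate 1. The log2 fold change of -0.46 (standard error, SE, 0.126, adjusted p = 0.0216) passed the p threshold but not the fold threshold, so that its message was not among the genes called while 32 of its listed targets were called higher. It was called lower without mutant replicate 3 (-0.55) and with total-count scaling (-0.54). HIF1α is mainly controlled as a protein, which was not measured here.

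The other 7 oxygen-sensing members were all called higher. *Egln1* encodes the main prolyl hydroxylase and is itself a target that feeds back on HIF. It was at 152, 140, 141 and 133 CPM in WT and 373, 415, 339 and 352 CPM in mutant libraries, a log2 fold change of 1.39 (SE 0.109, adjusted p = 5.32e-05). *Egln3*, a second inducible hydroxylase, was at 9.95, 9.29, 7.41 and 9.19 CPM in WT and 54.5, 46.0, 39.5 and 38.4 CPM in mutant libraries, a log2 fold change of 2.32 (SE 0.152, adjusted p = 2.08e-05). *Egln2*, the family member that is not a classical HIF target, was at 83.5 ± 4.45 CPM in WT and 86.8 ± 3.27 CPM in mutant hearts (SD, n = 4; log2 fold change 0.06, adjusted p = 0.675). Per length, *Egln1* stood at 39.4 RPKM, *Egln2* at 29.8 RPKM and *Egln3* at 3.37 RPKM in WT, and at 103, 31.0 and 16.8 RPKM in mutant hearts, so the order of the 3 levels was the same in both genotypes.

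*Ankrd37*, an ankyrin repeat gene much used as a hypoxia marker, was at 7.98, 6.13, 7.83 and 7.83 CPM in WT and 45.9, 38.4, 38.8 and 39.5 CPM in mutant libraries. Its log2 fold change was 2.45 (SE 0.130), and the mutant libraries other than replicate 1 lay close together. Of its exon bases, 22.7% are shared with *Lrp2bp* on the opposite strand, which had 182 counts in all libraries together against 7269 for *Ankrd37*. A further 3.70% are shared with *Ufsp2*, also on the opposite strand, which had 13396 counts, and with the strand setting not given some of its reads may be counted with *Ankrd37*. *Mxi1*, a repressor that competes with MYC for its partner MAX, was at 31.9, 33, 31.6 and 32.8 CPM in WT and 80.2, 87.4, 80.1 and 75.7 CPM in mutant libraries (log2 fold change 1.32, SE 0.0923). It was one of the tightest members within each genotype.

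*Bhlhe40*, a transcriptional repressor of the clock and stress response, was at 10.8, 13.6, 10.9 and 16.5 CPM in WT and 51.4, 51.0, 36.5 and 46.8 CPM in mutant libraries (log2 fold change 1.84). *Rora*, a nuclear receptor of the clock, was at 10.4, 6.21, 4.50 and 5.48 CPM in WT and 38.5, 31.7, 43.7 and 36.9 CPM in mutant libraries (log2 fold change 2.51). Both had wide WT spreads, with the highest *Rora* level in WT replicate 1, yet the lowest mutant library was above the highest WT library for each. *Wsb1*, a ubiquitin ligase adaptor, was at 170, 124, 143 and 158 CPM in WT and 294, 294, 282 and 351 CPM in mutant libraries (log2 fold change 1.04), again without overlap.

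**Figure D3:**
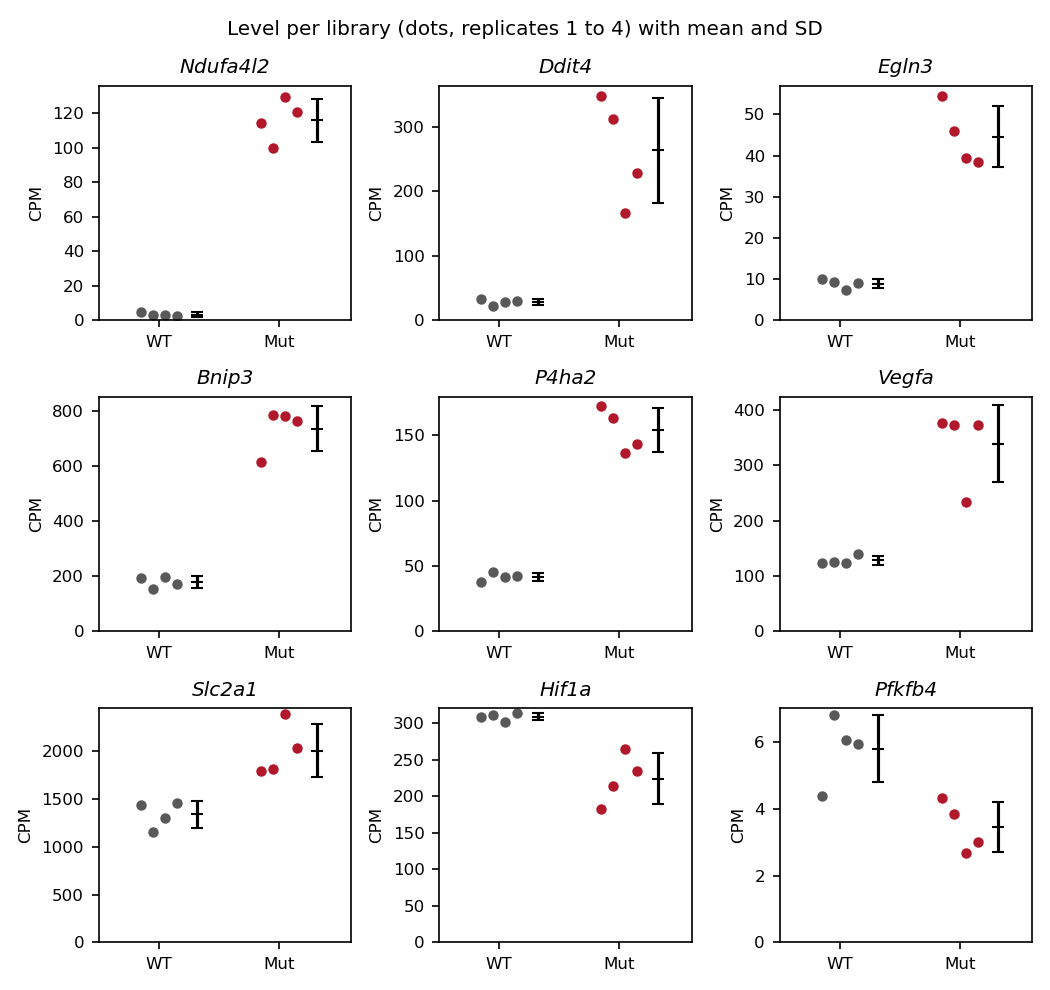
Dots are the CPM of single libraries (replicates 1 to 4 from left to right) for 9 of the genes, with the mean and SD of each genotype beside them; axes start at 0. *Ndufa4l2* sits below 6 CPM in all WT libraries and near 100 CPM or above in the mutants, *Hif1a* and *Pfkfb4* are the panels with lower mutant dots, and the low mutant dot of *Vegfa* is replicate 3.

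All 4 secreted members were called higher. *Vegfa* (ENSMUSG00000023951, chromosome 17 from 46016993 to 46032369, minus strand), the chief growth factor of blood vessels and an essential signal for endocardial cushions, was at 123, 125, 124 and 140.0 CPM in WT and at 376, 373, 235 and 373 CPM in mutant libraries. Mutant replicate 3 was well below the other mutants and still above every WT library. The log2 fold change was 1.40 (SE 0.160, adjusted p = 0.000378), and it was 1.09 or more under every alternative that gave a value. *Adm*, adrenomedullin, a vasodilator peptide needed for cardiovascular development, was at 18, 12.5, 20.4 and 13.9 CPM in WT and 43.1, 61.7, 56.4 and 58.4 CPM in mutant libraries (log2 fold change 1.76). *Stc2*, a secreted glycoprotein of stress responses, was at 8.71, 9.59, 7.61 and 7.62 CPM in WT and 79.5, 63.7, 30.0 and 43.3 CPM in mutant libraries (log2 fold change 2.69, SE 0.275). Its mutant libraries were widely spread, with replicate 1 the highest and replicate 3 the lowest, but none came near the WT range. *Mif*, a cytokine, was the most abundant member per length, at 1485 ± 292 RPKM in WT and 2673 ± 380 RPKM in mutant hearts (SD, n = 4; log2 fold change 0.85, adjusted p = 0.00507).

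Of 9 receptor genes for VEGF and adrenomedullin, 2 (22.2%) were called higher and 1 lower (median log2 fold change 0.36). Of all genes 12.5% were called higher and 12.1% lower, 24.6% in either direction. Counts this small do not set the receptors apart from all genes. The VEGF receptor genes *Flt1* (log2 fold change 1.01, adjusted p = 0.00159) and *Kdr* (0.68, adjusted p = 0.0119) rose, the latter not called with the foregut covariate (0.33, adjusted p = 0.299), and the coreceptor gene *Nrp1* fell (-0.64, adjusted p = 0.00956). Of 8 endothelial markers 3 were called higher and 5 were not called, with values below 0 for *Cdh5*, *Tek* and *Nfatc1*, a median log2 fold change of 0.15 and an overlapping summed level of 602 to 713 CPM in WT and 700 to 783 CPM in mutant libraries, and their part in the receptor values was not tested.

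Of the 6 collagen-modifying members, 5 were called higher. *P4ha1* and *P4ha2* encode catalytic subunits of the collagen prolyl hydroxylase. *P4ha1* was at 94.5, 110, 98.0 and 96.7 CPM in WT and 251, 240, 230 and 204 CPM in mutant libraries (log2 fold change 1.21), and *P4ha2* was at 38.0, 45.3, 41.6 and 42.1 CPM in WT and 172, 163, 136 and 143 CPM in mutant libraries (log2 fold change 1.88). Neither gene had a WT library near the mutant range. The third subunit gene, *P4ha3*, was scarce, at 0.508 RPKM in WT and 0.143 RPKM in mutant hearts.

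The lysyl hydroxylases of the list differed. *Plod2*, whose product hydroxylates collagen telopeptides, was at 83.6, 69.1, 63.3 and 76.8 CPM in WT and 203, 185, 185 and 179 CPM in mutant libraries (log2 fold change 1.36, adjusted p = 8.13e-05). *Plod1* was at 38.9, 56.9, 42.9 and 49.9 CPM in WT and 52.8, 52.3, 40.9 and 46.4 CPM in mutant libraries, a log2 fold change of 0.03 (SE 0.141, adjusted p = 0.895) and overlapping genotypes. *Plod3*, which is not on the list, had a log2 fold change of 0.04 (adjusted p = 0.809).

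Among the lysyl oxidases, which cross-link collagen and elastin, *Loxl2* was at 143, 172, 114 and 118 CPM in WT and 332, 266, 324 and 289 CPM in mutant libraries (log2 fold change 1.15). *Lox* was nearly absent from WT hearts, at 0.364, 0.183, 0.139 and 0.284 CPM, and stood at 2.36, 3.11, 0.844 and 1.70 CPM in mutant libraries. Its log2 fold change of 3.06 was the third largest of the list, but it rested on 7 to 117 counts per library and had the widest error of the members called (SE 0.486, adjusted p = 0.00205). *Loxl1* fell in the same hearts (log2 fold change -0.57, adjusted p = 0.0269).

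All 7 mitochondrial members were called higher, and the largest rise of the list was among them. *Ndufa4l2* (ENSMUSG00000040280, chromosome 10 from 127514939 to 127517152, plus strand) encodes a HIF-induced relative of a respiratory chain subunit that lowers complex I activity. It was at 5.04, 3.40, 2.91 and 2.29 CPM in WT and 114, 99.7, 129 and 121 CPM in mutant libraries. The mutant mean was 34.3-fold the WT mean in the fit (log2 fold change 5.10, SE 0.238, adjusted p = 5.77e-06), the 7th largest rise among the 17163 genes tested. It shares 30 exon bases, 3.13% of its length, with *Shmt2* on the opposite strand, which had 37628 counts in all libraries together against 17437. Its housekeeping paralog *Ndufa4*, a subunit of the respiratory chain, was at 409 ± 166 CPM in WT and 534 ± 217 CPM in mutant hearts (SD, n = 4; log2 fold change 0.38, adjusted p = 0.396). Its value was 0.07 without mutant replicate 3, 0.18 without WT replicate 2 and 0.65 without WT replicate 1, none of them called, and 1.70 and called with the foregut covariate. Per length, *Ndufa4l2* stood at 3.55 RPKM beside 296 RPKM for *Ndufa4* in WT hearts, and at 121 RPKM beside 387 RPKM in mutant hearts.

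*Bnip3* and *Bnip3l* encode mitophagy receptors of the outer mitochondrial membrane. *Bnip3* was at 194, 153, 197 and 174 CPM in WT and 616, 789, 782 and 764 CPM in mutant libraries (log2 fold change 2.04, adjusted p = 2.19e-05). *Bnip3l* was at 149, 172, 167 and 142 CPM in WT and 336, 358, 421 and 351 CPM in mutant libraries (log2 fold change 1.22, adjusted p = 0.000172). Per length, *Bnip3* was the more abundant in both genotypes, at 79.3 against 40.8 RPKM in WT and 326 against 95 RPKM in mutant hearts. Their relative *Bnip2* had a log2 fold change of -0.25 (adjusted p = 0.0933).

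*Pdk1* encodes a kinase that inhibits pyruvate dehydrogenase. It was at 156, 205, 183 and 178 CPM in WT and 328, 392, 386 and 343 CPM in mutant libraries (log2 fold change 1.01). *Higd1a*, a small inner membrane protein, was at 202, 106, 153 and 137 CPM in WT and 321, 337, 495 and 387 CPM in mutant libraries (log2 fold change 1.37). *Fam162a*, a mitochondrial protein linked to hypoxic cell death, was at 298, 152, 222 and 202 CPM in WT and 615, 638, 906 and 720 CPM in mutant libraries (log2 fold change 1.72). *Higd1a* and *Fam162a* had the same order of libraries within each genotype, with WT replicates 1 and 2 as the extremes and mutant replicate 3 as the highest. *Ak4*, a mitochondrial adenylate kinase, rose by a smaller amount (log2 fold change 0.92, adjusted p = 0.000837).

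The members for glucose uptake and its control did not move as one. *Slc2a1* (ENSMUSG00000028645, chromosome 4 from 119108711 to 119137983, plus strand) encodes GLUT1, the main glucose carrier of embryonic cells. It was at 1434, 1157, 1302 and 1457 CPM in WT and at 1790, 1812, 2388 and 2030 CPM in mutant libraries, so it was already abundant in WT hearts and rose the least of the members called higher (log2 fold change 0.58, SE 0.139, adjusted p = 0.0125). It was highest in mutant replicate 3, without which the value was 0.49 and the gene was not called. *Slc2a3*, the high-affinity carrier GLUT3, was at 97.9, 207, 142 and 126 CPM in WT and 548, 496, 323 and 429 CPM in mutant libraries (log2 fold change 1.65, adjusted p = 0.00132), and stood at 19.8 RPKM beside 381 RPKM for *Slc2a1* in WT hearts.

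*Pfkfb3* and *Pfkfb4* encode bifunctional enzymes that set the level of fructose 2,6-bisphosphate, the activator of phosphofructokinase, and they moved in opposite directions. *Pfkfb3* had a log2 fold change of 0.87 (SE 0.230, adjusted p = 0.0194), but mutant replicate 3 at 33.2 CPM lay below WT replicate 2 at 37.9 CPM. It was not called without WT replicate 3, WT replicate 4 or mutant replicate 1, where the log2 fold change was 0.83, 0.83 and 0.75 and the adjusted p 0.0614, 0.0606 and 0.0511. With the foregut covariate the log2 fold change was 0.12 (adjusted p = 0.784). *Pfkfb4* was at 4.40, 6.80, 6.08 and 5.96 CPM in WT and 4.33, 3.85, 2.69 and 2.99 CPM in mutant libraries, a log2 fold change of -0.75 (SE 0.222, adjusted p = 0.0312). WT replicate 1 and mutant replicate 1 were nearly equal, and the call was lost without WT replicate 2, 3 or 4 or mutant replicate 3 or 4, with adjusted p from 0.0614 to 0.0885.

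The pair of carbonic anhydrases that control pH outside the cell were both scarce. *Car9* was at 3.95, 4.01, 4.76 and 3.32 CPM in WT and 11.8, 13.8, 8.0 and 12.4 CPM in mutant libraries (log2 fold change 1.52, adjusted p = 0.000891). It shares 9.29% of its exon bases with *Gm12454* on the opposite strand, which had 1687 counts against 2415 for *Car9*, and with the strand setting not given their reads may be mixed. *Car12* stayed near 1 CPM, on 20 to 58 counts per library, and its log2 fold change of 0.22 had a standard error of 0.407 (adjusted p = 0.707).

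Of the hydroxylase members that act on chromatin and other nuclear proteins, *Kdm3a*, a histone H3 demethylase, was at 37.9, 62.7, 48.0 and 52.7 CPM in WT and 114, 116, 97.0 and 96.5 CPM in mutant libraries (log2 fold change 1.07, adjusted p = 0.00127). *Jmjd6* was at 92.4, 98.8, 97.9 and 96.6 CPM in WT and 139, 148, 119 and 132 CPM in mutant libraries. Its genotypes did not overlap and its adjusted p was 0.00708, but the log2 fold change of 0.48 was under the fold threshold. It was called higher without WT replicate 2 (0.51), without mutant replicate 3 (0.54) and with upper-quartile scaling (0.57).

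The last group holds genes of growth control, stress and lipid storage, and 4 of its 5 members were called higher. *Ddit4* (ENSMUSG00000020108, chromosome 10 from 59949675 to 59951770, minus strand), or REDD1, restrains mTORC1 when oxygen or energy is short. It was at 33.8, 22.9, 28.3 and 29.5 CPM in WT and at 347, 313, 167 and 228 CPM in mutant libraries. The lowest mutant library was several times the highest WT library, and the log2 fold change of 3.20 (SE 0.237, adjusted p = 3.74e-05) was the second largest of the list. *Ndrg1*, a growth-arrest gene, was at 4.64, 2.75, 2.95 and 3.45 CPM in WT and 33.5, 41.3, 15.2 and 22.9 CPM in mutant libraries (log2 fold change 3.04, SE 0.314). *Hilpda*, which coats lipid droplets and blocks their lipolysis, was at 14.5, 10.6, 15.7 and 15.1 CPM in WT and 37.0, 36.0, 40.7 and 39.9 CPM in mutant libraries (log2 fold change 1.46). *Ero1l*, the oxidase that forms disulfide bonds in the endoplasmic reticulum, rose by a log2 fold change of 0.90 (adjusted p = 0.00149). *Ppfia4*, a liprin scaffold protein, was at 45.8 ± 3.46 CPM in WT and 46.2 ± 4.98 CPM in mutant hearts (SD, n = 4; log2 fold change 0.01, adjusted p = 0.935).

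Most members have close relatives in the genome, so each member called higher was set, within each library, against the listed paralog that was most abundant per length in WT hearts. The ratio was taken per length from log2 values with 0.5 CPM added, and the pairing rule was chosen after the values were known. Members entered because they were called higher between these libraries, so the ratios are a description with no test. Of 28 such pairs with 23 different paralogs, the ratio of member to paralog was higher in all 4 mutant than in all 4 WT libraries in 23, lower in 1 and overlapping in 4. The number of pairs higher without overlap was 23 as well from plain counts with nothing added, which does not depend on library scaling. With the paralog most abundant in mutant hearts it was 22, since *Car9* then stood against *Car4* (log2 fold change 1.27, adjusted p = 0.000815) in place of *Car14*, with log2 ratios of -3.46 to -2.81 in WT and -3.78 to -2.33 in mutant libraries. For the scarce *Lox*, *P4ha3* and *Adm2* the added 0.5 CPM sets much of the value. The median difference of the log2 ratio was 1.40. Of the 23 paralogs themselves, 15 were not called, 5 were called higher and 3 lower, against 12.5% and 12.1% of all genes.

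The ratio of *Ndufa4l2* to *Ndufa4* differed most, with a mean log2 ratio of -6.14 ± 0.565 in WT and -1.60 ± 0.423 in mutant hearts (SD, n = 4). The log2 ratio of *Bnip3* to *Bnip2* was 1.14 ± 0.0697 in WT and 3.42 ± 0.0880 in mutant hearts, and that of *Vegfa* to *Vegfb* was -1.14 ± 0.120 and 0.19 ± 0.388. In WT hearts *Vegfb* was thus the more abundant message of that pair, and in the mutant libraries other than replicate 3 *Vegfa* was. The order of *Plod2* and *Plod3*, of *Pdk1* and *Pdk3*, of *Kdm3a* and *Kdm3b* and of *Higd1a* and *Higd2a* turned in the same way, with the member below its paralog in mean RPKM in WT and above it in mutant hearts. For *Pdk1* and *Pdk3* the levels were nearly equal in mutant hearts, with log2 ratios of 0.20, 0.25, 0.004 and 0.017 in replicates 1 to 4.

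In 4 of the 5 pairs that did not follow, the paralog rose as well. *Adm2*, intermedin, rose from 0.547 ± 0.273 to 8.16 ± 0.710 CPM (SD, n = 4; log2 fold change 3.92, adjusted p = 6.41e-05), so that the ratio of *Adm* to *Adm2* fell by 1.33 on the log2 scale. *Stc1* rose about as much as *Stc2* (log2 fold change 2.62, adjusted p = 0.000316), and the ratio of *Stc2* to *Stc1* differed by -0.05 with overlapping genotypes. *Slc2a4*, the insulin-regulated carrier GLUT4, rose too (log2 fold change 0.68, adjusted p = 0.00739), and the ratios of *Slc2a1* and *Slc2a3* to it overlapped between genotypes. The ratio of *Pfkfb3* to *Pfkfb1* overlapped through WT replicate 2.

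**Figure D4:**
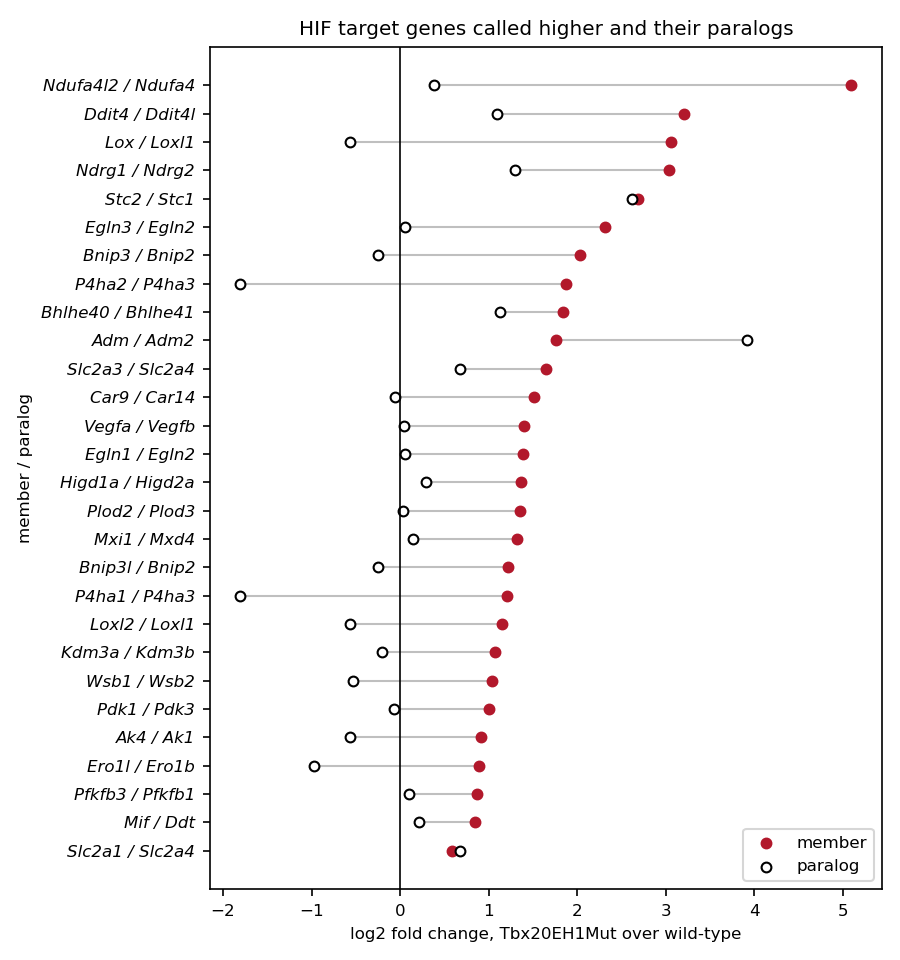
For each of 28 pairs, the filled point is the log2 fold change (Tbx20EH1Mut over wild-type) of the HIF target gene and the open point that of its most abundant listed paralog. Most open points lie near 0 or below, and the open point of *Adm2* at 3.92 lies to the right of *Adm* at 1.76, while that of *Stc1* lies beside *Stc2* and that of *Slc2a4* beside *Slc2a1* but to the left of *Slc2a3*.

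Over the 38 tested genes of the paralog list, which does not hold *Egln2*, 8 were called higher and 4 lower (median log2 fold change 0.11), and *Car2*, a cytosolic carbonic anhydrase abundant in red cells, had the largest fall among those called (-1.46, adjusted p = 0.00114). Erythroid markers fell in the same libraries, and their part in that value was not tested.

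The machinery that controls HIF was counted as well. Of 16 component genes, 5 were called higher and 1 lower (median log2 fold change 0.36), against 12.5% and 12.1% of all genes. *Hif1an*, the asparaginyl hydroxylase that blocks the transactivation domain of HIF α subunits, was at 70.6, 114, 77.9 and 78.4 CPM in WT and 51.5, 49.1, 45.9 and 46.4 CPM in mutant libraries (log2 fold change -0.82, adjusted p = 0.00385), with no overlap, and at -1.26 with the foregut covariate. *Hif3a* (log2 fold change 0.69, adjusted p = 0.0297) and *Epas1*, which encodes HIF2α (0.64, adjusted p = 0.0241), were called higher, although *Epas1* overlapped between genotypes and each lost its call in at least 3 of 8 fits that left out a library. With the foregut covariate neither was called, with *Hif3a* at -0.0084 (adjusted p = 0.982) and *Epas1* at 0.42 (adjusted p = 0.284), and the call was also lost for *Epas1* with the replicate block and for *Hif3a* with total-count scaling. *Siah1a*, *Cited2* and *Vhl* were called higher with log2 fold changes from 0.51 to 0.58.

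Further HIF targets beyond the list were counted for comparison. Of 29 such genes, 18 were called higher and 1 lower (median log2 fold change 0.74), against 12.5% and 12.1% of all genes. *Cited2*, called higher, is counted here and among the component genes above. The largest were *Cox4i2*, the hypoxic form of a cytochrome c oxidase subunit (3.43, adjusted p = 4.62e-05), *Igfbp3*, a binding protein of insulin-like growth factors (2.96, adjusted p = 5.77e-06), and *Tmem45a*, a membrane protein (2.31, adjusted p = 0.000576). The gene called lower was *Aqp1*, a water channel of red cells and endothelium (-1.18, adjusted p = 0.0143), in libraries where erythroid markers fell as well. Of 15 glycolysis genes, 7 were called higher and 1 lower with a median of 0.46 beside the same shares, the largest rises being *Hk2* (0.96), *Pgk1* (0.78) and *Pfkl* (0.77), and the calls of *Pgk1* and *Pfkl* were lost with the foregut covariate (0.73, adjusted p = 0.0576, and 0.52, adjusted p = 0.0962). No test compared the lists with each other.

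*Ddit4*, *Stc2*, *Ero1l* and *Vegfa* are also known to respond to ATF4, the transcription factor of the integrated stress response. For this reason 15 tested genes of an ATF4 list, its targets and *Atf4* itself, were counted. Of these, 6 were called higher and 1 lower (median log2 fold change 0.52), against 12.5% and 12.1% of all genes. *Chac1* (log2 fold change 4.23, adjusted p = 0.00055), *Trib3* (3.05, adjusted p = 0.00024) and *Slc7a11* (1.49, adjusted p = 0.00725) were the largest, and *Slc7a11* was not called with the foregut covariate, at a similar fold (1.34, adjusted p = 0.108). In that fit *Chac1* was called at 2.35. The share of either factor in the level of the genes they have in common was not tested.

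Among the mutant libraries, replicate 3 stood apart for many members. Replicate 3 was the lowest mutant library for 16 of the 38 members (42.1%, against 37.0% of all genes tested) and the highest for 10 (26.3%, against 35.4%), so it was an extreme library for the list about as often as for other genes. Against the mean of the other 3 mutant libraries on the log2(CPM + 0.5) scale it was low for *Lox* (-1.07), *Ndrg1* (-1.04), *Stc2* (-0.996), *Pfkfb3* (-0.82), *Ddit4* (-0.80) and *Vegfa* (-0.67), and high for *Higd1a* (0.51), *Fam162a* (0.46), *Mif* (0.38) and *Slc2a1* (0.35). All 7 mitochondrial members lay above 0, but this was not set against the share of all genes above 0. The transcript's exon length moved with this pattern. Over the 13937 genes that averaged 1 CPM or more, the median deviation of that library was 0.40 for the 825 genes with at most 1000 exon bases and -0.05 for genes above 5000 bases, and Spearman's correlation of length with deviation was -0.16 over those genes and -0.33 over the 38 members. Genes of 1 library share its depth and RNA, and the part of length in the member values was not tested.

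**Figure D5:**
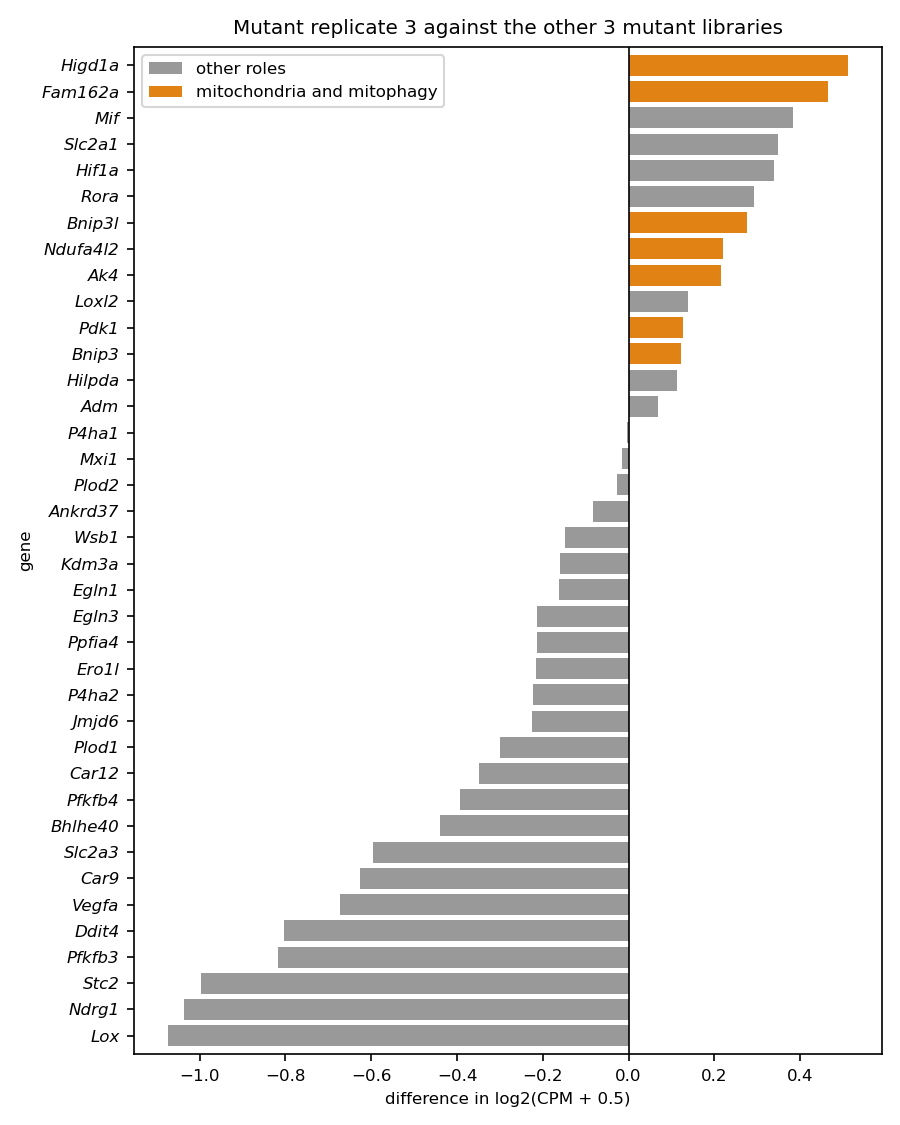
Bars give, for each of the 38 genes, log2(CPM + 0.5) in Tbx20EH1Mut replicate 3 minus the mean of the other 3 mutant libraries, with the 7 mitochondrial genes in orange. The orange bars all point to the right, from *Bnip3* and *Pdk1* near 0.1 to *Higd1a* at 0.51, and the longest bar to the left is that of *Lox* at -1.07.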

How the data were processed

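Whole E9.5 hearts, 3 pooled per library, gave 4 WT and 4 Tbx20EH1Mut libraries of paired-end poly-A RNA-seq. The tables deposited by the authors, 1 per library, hold unnormalized counts per Ensembl gene. The submitters' processing notes name Trimmomatic 0.36, STAR 2.5.2b and GRCm38/mm10. The counting tool, its strand setting and its treatment of multimapping reads are not given in the sources used here. Counts on listed pseudogene copies of members were few, 88 for *Mif-ps3* and 593 for *Bnip3l-ps* over all libraries.

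Symbols were matched by identifier for 48970 of 49315 genes. Of the 49056 identifiers found in GENCODE M21, 91.4% had the same start and end. Counts were filtered with filterByExpr, scaled by TMM and fitted with glmQLFit and glmQLFTest of edgeR 4.0.16 in R 4.3.3, on genotype alone. The Benjamini-Hochberg adjustment covered 17163 genes, and the common dispersion was 0.0707. The standard error is the absolute log2 fold change over the square root of the F statistic. Calls needed an adjusted p up to 0.05 and a log2 fold change of 0.5 or more in either direction, thresholds named in the study's methods. Single values per library were compared by an exact two-sided permutation test over 70 arrangements, smallest p 0.0286. The steps were run on simulated counts with the same dispersion for all genes and no added differences between libraries, which checks the code and not the calls. Libraries of the same genotype all differed beyond sampling noise (chi-square per degree of freedom from 11.0 to 231), and the labels do not say whether pools of a genotype came from separate litters.

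The members and gene lists were chosen with earlier results of these data known. Values in every library were given for members called with a log2 fold change of 1 or more and for *Hif1a*, *Vegfa*, *Slc2a1* and *Pfkfb4*. From each further list the called genes with the 3 largest absolute log2 fold changes were named, and *Ndufa4* always. Values of other uncalled members, other genes of those lists and the paralogs set beside members were added after the values were seen. Marker lists for other cells were counted as well. For epicardium 2 of 6 were called higher and the 4 not called had values below 0 (median log2 fold change -0.10). Its summed levels were 58.6 to 177 CPM in WT and 128 to 165 CPM in mutant libraries. For neural crest 0 of 3 tested were called, and for neural tube 1 of 3 was called higher. Both sums were higher in every mutant library, at 51.1 to 56.3 against 63.5 to 76.1 CPM for neural crest and 2.13 to 10.8 against 11.3 to 21.4 CPM for neural tube. Most of the neural crest sum was *Ets1*, at a log2 CPM of 5.64 to 5.77 in WT and 5.97 to 6.09 in mutant libraries. The log2 fold change of *Sox10* was -0.96, so the sum does not describe the neural crest list as a whole. For hepatic and visceral endoderm 1 of 5 was called higher, and the sums overlapped (1.04 to 8.92 CPM in WT, 2.52 to 142 CPM in mutant libraries). Alternatives were RLE, upper-quartile and total-count scaling, DESeq2 1.42.0, voom of limma 3.58.1, a filter of 1 count only, a minimum of 10 counts in each library, a replicate block, the foregut marker level as a covariate, other fold thresholds and leaving out each library. Joins, promoter searches and plots used Python 3.11.15, pandas 2.3.3, scipy 1.17.1 and matplotlib 3.10.9. The ChIP-seq data were not used here.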

Additional observations from a re-analysis of the deposited data

Results flagged for a closer look

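In 7 of 76 groups of 4 libraries (9.21%) 1 library lay outside the others by Dixon's criterion, which chance meets in about 1 of 20 groups. For *Ankrd37* these were WT replicate 2, the lowest at 6.13 CPM, and mutant replicate 1, the highest at 45.9 CPM. For *Vegfa* they were WT replicate 4, the highest at 140.0 CPM, and mutant replicate 3, the lowest at 235 CPM. *Mif* was highest in mutant replicate 3 at 1796 CPM, *Bnip3* was lowest in mutant replicate 1 at 616 CPM, and *Pfkfb3* was highest in WT replicate 2 at 37.9 CPM. Except for *Pfkfb3*, none of these libraries reached the range of the other genotype.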

How the results depend on the processing

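Of the 32 members called higher, 28 were called at the 0.5 threshold in every fit in which they were tested, and the count lay between 29 and 33 apart from 27 with the fold threshold at 1. With the foregut covariate 29 were called: *Lox* (2.22, adjusted p = 0.113), *Ero1l* (0.58, adjusted p = 0.0508) and *Pfkfb3* (0.12, adjusted p = 0.784) were lost. That covariate is a mean of log2 values, so it also follows the 7 scarcer markers other than keratins. These summed to 1.12 to 54.9 CPM in WT and 30.6 to 191 CPM in mutant libraries. The covariate thus moved with genotype and also varied among WT libraries, and the fit cannot fully separate it from genotype. With at least 10 counts in every library 31 were called, since *Lox* was then not tested. Leaving out each library in turn gave 31 to 33 members called higher, 0 to 1 lower, and 2836 (without WT replicate 4) to 5667 (without WT replicate 1) genes called in all. Members called lower numbered 2 with total-count scaling, where *Hif1a* was at -0.54, 2 with no fold threshold, 0 with the replicate block and 0 with the fold threshold at 1, where 1859 genes were called in all. The direction turned for genes near 0: *Plod1* was at -0.030 with total-count scaling, -0.44 with the foregut covariate and between -0.057 and 0.14 with a library left out, below 0 without WT replicate 1 or 3 or mutant replicate 1 or 2; *Ppfia4* was at -0.044 and -0.10 in those fits and between -0.058 and 0.072 with a library left out, below 0 without WT replicate 3 or mutant replicate 4; *Car12* was at -0.73 with the covariate and between -0.14 (without mutant replicate 1) and 0.43 with a library left out; and *Hif3a* was at -0.0084 with the covariate. The causes were not tested.

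Replicate numbers did not pair the libraries, with correlations of same-numbered deviations of -0.27, 0.34, 0.06 and 0.06. The replicate block called 32 members higher and 3681 genes in all, and *Pfkfb4* lost its call (adjusted p = 0.0661). The number of member to paralog ratios higher without overlap was 23 with 1 CPM and with nothing added, and 22 with the paralog most abundant in mutant hearts, all chosen after seeing the data. Depth limits *Lox* and *Car12* most, which had under 120 counts in each library.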
